A study of Homo sapiens with 18 samples.

Results

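The genes described here are 39 listed targets of the transcription factor ATF4 and aminoacyl-tRNA synthetases, measured in HEK293, a human embryonic kidney cell line. They were found in the deposited table as the rows whose gene symbols all belong to the list, which gave 42 rows for 38 genes, of 21214 rows that carry a symbol. CBS, the cystathionine synthase, has no row of its own, because its row is shared with LOC102724560, and it was given no value. ATF4, PSPH, MTHFD2 and VARS1 have more than 1 row, and each is described by its brightest row. The cells had received a plasmid for the homeobox gene RHOXF1, one for RHOXF2 or a control vector, and RNA was taken 48 h or 24 h after transfection. That makes 6 groups of 3 arrays: RHOXF1, RHOXF2 and control cells at 48 h, and the same 3 kinds of cell at 24 h. All groups went through the same transient transfection with Lipofectamine and OriGene plasmids, so the control cells carry plasmid and reagent too, and no untransfected cells are among the groups. The protocol names pCMV6-AC-GFP beside the RHOX clones, while the label of the control cells calls their vector empty. The study compared the RHOX cells with control cells at each time.

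ATF4 is the main transcription factor of the integrated stress response. Kinases that sense amino acid shortage, misfolded protein in the endoplasmic reticulum (ER), double-stranded RNA or lack of haem phosphorylate the initiation factor eIF2, which slows translation in general while ATF4 protein is made more efficiently. ATF4 then binds with C/EBP partners to composite elements and raises genes for amino acid uptake and synthesis, for one-carbon metabolism, for tRNA charging and for feedback on the response itself. Because much of the control of ATF4 lies in translation, its mRNA need not follow its protein.

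The values are log2 RMA values, 1 per row and array. Replicate arrays of a group correlated at 0.993 to 0.998 over the rows with a symbol. The RHOXF1 row averaged 12.27 at 48 h and 12.25 at 24 h in RHOXF1 cells, against 6.13 and 6.34 in control cells, and the row shared by RHOXF2 and RHOXF2B averaged 12.92 and 12.83 in RHOXF2 cells, against 6.62 and 6.81 in control cells. In RHOXF2 cells the RHOXF1 row averaged 7.97 at 48 h and 7.48 at 24 h. The neurofilament genes NEFM and NEFL, which HEK293 cells express, lay at percentile 99.2 or above on every array, while the kidney gene PAX2 lay between 34.6 and 40.4. Of 12 markers of other cell types 11 have a row, and their summed log2 level ran from 62.2 to 65.6 over all arrays. The blood cell marker PTPRC lay at percentile 3.7 or below on every array. Not all of these markers were low. The fibroblast markers COL1A1 and COL3A1 lay at percentiles 53.3 to 59.1 and 41.2 to 46.4, and the muscle marker DES at 44.4 to 48.1, all above PAX2. Array numbers 1 to 9 are all from 24 h and 16 to 24 all from 48 h, so time and array order cannot be told apart. The labels speak of biological triplicates without saying that they came from separate cultures, so p-values measure the spread between these arrays. An array measures the RNA of whole wells, so fewer cells with a transcript and less of it per cell cannot be told apart.

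The composite C/EBP-ATF element to which ATF4 binds, searched as TGATGNAA on both strands, was present in the promoter windows of 13 of the 31 member genes that have a window in the RefSeq promoter table (GRCh38.p14, 250 bases before to 50 bases after the start site), or 41.9%. Of all 27305 genes with a window, 4.46% held it. Among the roles, it was found in 7 of 10 tRNA synthetases, 2 of 3 transporters, 2 of 10 regulators, 1 of 6 amino acid and one-carbon enzymes and 1 of 2 glutathione-degrading enzymes. A match of these letters is a description of the window and not a bound site. The windows below show 8 bases on each side of the element, written 5′ to 3′ on the strand that reads TGATGNAA, with the element in capitals. They are shown because these genes differ in what they did between the times, although all hold the element.
ASNS: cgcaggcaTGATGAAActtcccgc
ATF3: ggtcaggaTGATGGAAggctgtca
CEBPG: gcggcgtcTGATGCAAcctgccgg
CHAC1: ggcaggagTGATGCAAcggcaggg
AARS1: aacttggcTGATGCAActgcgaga
CARS1: ctagaatcTGATGCAAccgccgcc
GARS1: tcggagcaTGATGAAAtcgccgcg
MARS1: tccctcgcTGATGCAAccggaacc
The ASNS window lies at chr7:97872461-97872484 on the minus strand, with the element 68 bases upstream of the start site. The ATF3 window lies at chr1:212565208-212565231 on the plus strand, 191 bases upstream, and that of CEBPG at chr19:33374063-33374086 on the plus strand, 42 bases upstream. The CHAC1 window lies at chr15:40953254-40953277 on the minus strand, 209 bases upstream of a gene on the plus strand. Those of the synthetases lie at chr16:70289678-70289701 (AARS1, plus strand, 187 bases upstream), chr11:3057410-3057433 (CARS1, plus strand, 2 bases upstream), chr7:30594837-30594860 (GARS1, minus strand, 33 bases upstream) and chr12:57488056-57488079 (MARS1, minus strand, 4 bases upstream). All 8 elements begin upstream of the start site, and those of CARS1 and MARS1 run across it.

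For ASNS, asparagine synthetase, whose promoter is the classical example of amino acid control, the 250 bases before the start site (chr7:97872409-97872658, minus strand) are given whole, with the element in capitals.
ASNS promoter: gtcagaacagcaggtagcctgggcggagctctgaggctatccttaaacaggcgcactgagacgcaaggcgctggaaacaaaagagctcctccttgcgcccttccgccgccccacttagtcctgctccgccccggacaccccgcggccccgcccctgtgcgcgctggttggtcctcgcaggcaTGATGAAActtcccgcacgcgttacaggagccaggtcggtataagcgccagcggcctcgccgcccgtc

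**Figure D1:**
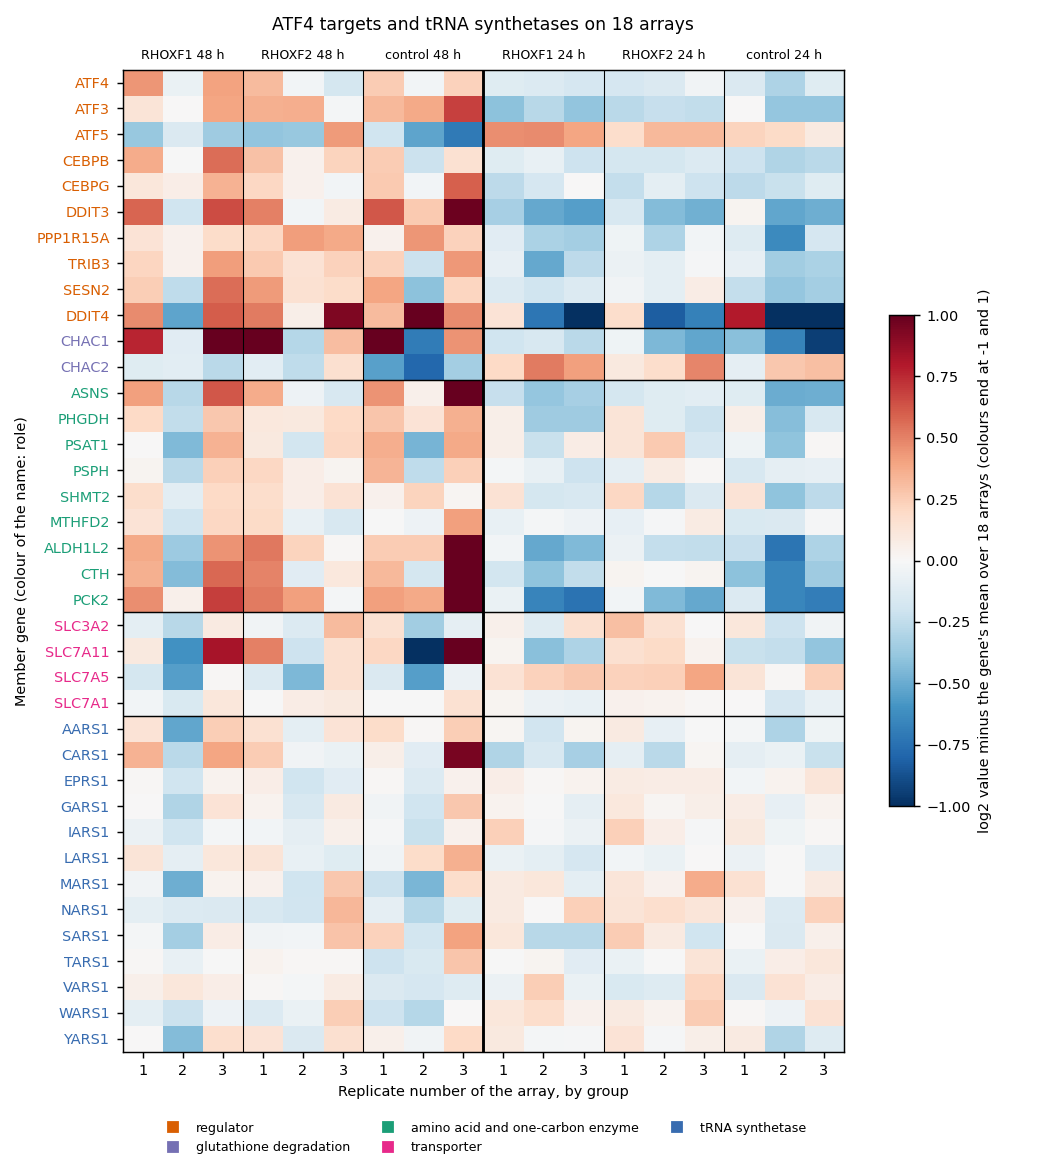
Each cell is the log2 value of a member gene (rows, by role) on an array (columns, by group and replicate number) minus the mean of that gene over 18 arrays; red is higher and blue lower. The 48 h arrays of replicates 1 and 3, to the left of the thick line, are red for most regulators and amino acid enzymes, and those of replicate 2 less so. An exception is replicate 3 of RHOXF2 cells at 48 h, where the enzymes' median was 0.03, against 0.07 on replicate 2. The tRNA synthetases are mixed.

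Between the times the members were called most often in control cells, as were all rows (17.8%, beside 4.42% in RHOXF1 and 1.24% in RHOXF2 cells). At 48 h against 24 h, 11 of 38 members were called by limma (Benjamini-Hochberg adjusted p under 0.05 over 21214 rows), where 17.8% of all rows were called. Of the members, 9 rose, beside 9.89% of all rows, and 2 fell, beside 7.89%. The median log2 change was 0.25 over the 38 members and -0.03 over all rows. It was 0.13 over the members without control replicate 3 at 48 h and 0.38 without replicate 2. The 48 h arrays lay wholly above the 24 h arrays for 11 members, beside 14.7% of all rows, and wholly below for 3, beside 15.7%. An unadjusted p under 0.05 was found for 19 members, beside 33.5% of all rows. The rises were in regulators and in enzymes of amino acid and one-carbon metabolism, the falls were of ATF5 and CHAC2, and none of the 13 tRNA synthetases was called.

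Of 10 regulators, 9 read higher at 48 h in control cells and 5 were called. ATF3, a stress-induced repressor that ATF4 and DDIT3 control, read 7.87, 7.93 and 8.23 at 48 h, against 7.55, 7.16 and 7.16 at 24 h. All 48 h arrays lay above all 24 h arrays, and the log2 change of 0.71 ± 0.13 (SE, n = 3 each) had the smallest p of all members (limma adjusted p = 0.00177). DDIT3, or CHOP, a C/EBP family factor linked to cell death under prolonged stress, read 8.18, 7.82 and 8.54 at 48 h, against 7.59, 7.04 and 7.07 at 24 h. The groups did not overlap, and DDIT3 rose by 0.95 ± 0.21 (adjusted p = 0.00595). PPP1R15A, also called GADD34, which brings a phosphatase to eIF2 and so ends the response, read 8.87, 9.27 and 9.06 at 48 h, against 8.70, 8.19 and 8.66 at 24 h. It too did not overlap, with a rise of 0.55 ± 0.13 (adjusted p = 0.00781). CEBPG, a dimer partner of ATF4, read 9.41, 9.12 and 9.75 at 48 h, against 8.89, 8.93 and 9.03 at 24 h, a rise of 0.47 ± 0.12 without overlap (adjusted p = 0.0147).

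ATF5, a relative of ATF4 that is also under translational control, went the other way. It read 7.28, 6.95 and 6.77 in control cells at 48 h, against 7.70, 7.67 and 7.57 at 24 h. No 48 h array reached a 24 h array, and the log2 change was -0.65 ± 0.16 (limma adjusted p = 0.0114). ATF4 itself had 2 rows. Its brighter row read 11.37, 11.09 and 11.35 at 48 h, against 10.97, 10.81 and 11.00 at 24 h, a change of 0.34 ± 0.13 that did not pass the test (adjusted p = 0.0748) although the groups did not overlap. Its dimmer row read 10.14, 11.34 and 10.24 at 48 h, against 10.31, 10.21 and 10.14 at 24 h (change 0.35, adjusted p = 0.271). There the difference lies in replicate 2 of the 48 h arrays, so the ATF4 rows had a like mean change from unlike arrays.

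The remaining regulators read higher at 48 h without passing. TRIB3, a pseudokinase that ATF4 induces and that dampens it, read 7.89, 7.44 and 8.09 at 48 h, against 7.58, 7.31 and 7.34 at 24 h (0.39 ± 0.14, limma adjusted p = 0.0568). DDIT4 and SESN2 both restrain mTORC1, the kinase complex that promotes growth. DDIT4 had the largest mean change of the members and a wide spread, with 8.78, 9.95 and 8.94 at 48 h, against 9.26, 7.27 and 7.42 at 24 h (1.24 ± 0.46, adjusted p = 0.0672). The groups overlapped because replicate 1 at 24 h lay above 2 of the 48 h arrays. SESN2 had a log2 change of 0.38 (adjusted p = 0.135) and the C/EBP factor CEBPB one of 0.32 (adjusted p = 0.0819), each with overlapping arrays.

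The glutathione-degrading enzymes CHAC1 and CHAC2 are close relatives, and only CHAC1 is known as an ATF4 target of the stress response. CHAC2 fell in control cells: it read 8.13, 7.89 and 8.33 at 48 h, against 8.58, 8.94 and 8.97 at 24 h. The groups did not overlap, and the log2 change was -0.71 ± 0.14 (limma adjusted p = 0.00268). CHAC1 read 8.83, 7.09 and 8.24 at 48 h, against 7.37, 7.12 and 6.85 at 24 h. Replicate 2 at 48 h lay below 2 of the 24 h arrays, and the change of 0.94 ± 0.37 was not called (adjusted p = 0.0803).

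All 9 measured enzymes of amino acid and one-carbon metabolism read higher at 48 h in control cells, and 5 were called. PCK2, the mitochondrial phosphoenolpyruvate carboxykinase, read 9.22, 9.19 and 9.82 at 48 h, against 8.67, 8.16 and 8.12 at 24 h. It rose 2.13-fold, a log2 change of 1.09 ± 0.22 without overlap (limma adjusted p = 0.003). ALDH1L2, a mitochondrial folate enzyme, read 7.95, 7.95 and 8.77 at 48 h, against 7.47, 6.97 and 7.39 at 24 h (0.95 ± 0.22, adjusted p = 0.00848). ASNS, which makes asparagine, read 9.77, 9.37 and 10.36 at 48 h, against 9.20, 8.82 and 8.83 at 24 h. Its groups did not overlap either, and the rise was 0.88 ± 0.22 (adjusted p = 0.0104). CTH, cystathionine gamma-lyase, which makes cysteine, read 9.04, 8.54 and 9.75 at 48 h, against 8.30, 8.06 and 8.36 at 24 h (0.87 ± 0.25, adjusted p = 0.0221). PHGDH, the first enzyme of serine synthesis, read 11.61, 11.47 and 11.69 at 48 h, against 11.39, 10.91 and 11.17 at 24 h (0.43 ± 0.14, adjusted p = 0.0455). The later serine enzymes PSAT1 and PSPH, and SHMT2 and MTHFD2, which pass serine's carbon to mitochondrial folate, had log2 changes of 0.22 to 0.27 and were not called.

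In control cells the calls of ATF3, DDIT3, PPP1R15A, CHAC2 and PCK2 held with any array left out and in every other alternative fit. Each of the other calls was lost in some of these. The share of all rows called without an array is not given, so a lost call does not show that a value rested on that array. Without replicate 3 at 48 h 5 members were called, namely ATF3, DDIT3, PPP1R15A, CHAC2 and PCK2. The other 6 then had limma adjusted p values of 0.0525 (ALDH1L2), 0.0613 (ATF5), 0.0638 (ASNS), 0.0857 (CEBPG), 0.126 (CTH) and 0.144 (PHGDH). Leaving out control replicate 2 at 24 h also took CTH above the threshold (adjusted p = 0.0819). For PHGDH the adjusted p was 0.196 without control replicate 2 and 0.08 without replicate 3 at 24 h, and 0.0798 without replicate 1 and 0.0577 without replicate 2 at 48 h. Leaving out arrays also added calls, among them that of the synthetase LARS1 given below. With only the control arrays fitted, CEBPG (adjusted p = 0.0678) and PHGDH (0.0661) did not pass. Without control replicate 2 at 48 h 16 members were called, among them CHAC1 (1.42, adjusted p = 0.013), TRIB3 (0.58, adjusted p = 0.0097), SESN2 (0.62, adjusted p = 0.0203), CEBPB (0.46, adjusted p = 0.0246), PSPH (0.41, adjusted p = 0.034) and SLC7A11 (1.02, adjusted p = 0.0454). Without control replicate 1 at 24 h 14 were called, with DDIT4 (1.88, adjusted p = 0.00525), SHMT2 (0.43, adjusted p = 0.0428) and TRIB3 (0.48, adjusted p = 0.044) added.

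None of the 4 amino acid transporters was called in control cells by limma, and 1 had an unadjusted p under 0.05. SLC7A5, which imports leucine and other large amino acids, read 10.74, 10.34 and 10.83 at 48 h, against 11.02, 10.90 and 11.13 at 24 h. It was lower on every 48 h array, with a change of -0.38 ± 0.15 that did not pass (adjusted p = 0.0847). SLC3A2, its partner chain, had a log2 change of -0.05 and the cationic amino acid carrier SLC7A1 one of 0.13. SLC7A11, the cystine importer, read 9.45, 8.17 and 10.51 at 48 h, the widest spread of any member there, against 9.02, 9.01 and 8.85 at 24 h (0.41 ± 0.39, adjusted p = 0.48).

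The 13 tRNA synthetases, which load amino acids onto tRNA, were split: 6 read higher and 7 lower at 48 h in control cells, with a median log2 change of -0.06 and a range of -0.25 to 0.42. None was called by limma, and 1, LARS1 for leucine, had an unadjusted p under 0.05 (0.22 ± 0.10, adjusted p = 0.112). Without control replicate 1 at 48 h LARS1 was called (0.33, adjusted p = 0.0246). The end of the range was CARS1 for cysteine, which read 8.10, 7.93 and 8.99 at 48 h, against 7.95, 7.98 and 7.82 at 24 h (0.42 ± 0.20, adjusted p = 0.152), with the high value on replicate 3. MARS1 for methionine was at the lower end (-0.25, adjusted p = 0.273). The other 25 members had a median of 0.39, with 21 higher. The C/EBP-ATF element did not follow this split. The 7 synthetases that hold it had a median of -0.06 and no call, and the 6 other members that hold it had a median of 0.59 and 3 calls (ASNS, ATF3 and CEBPG). Of the 15 other members whose windows lack it, 7 were called, with a median of 0.38. These counts are descriptions, and the difference between the sets was not tested.

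**Figure D2:**
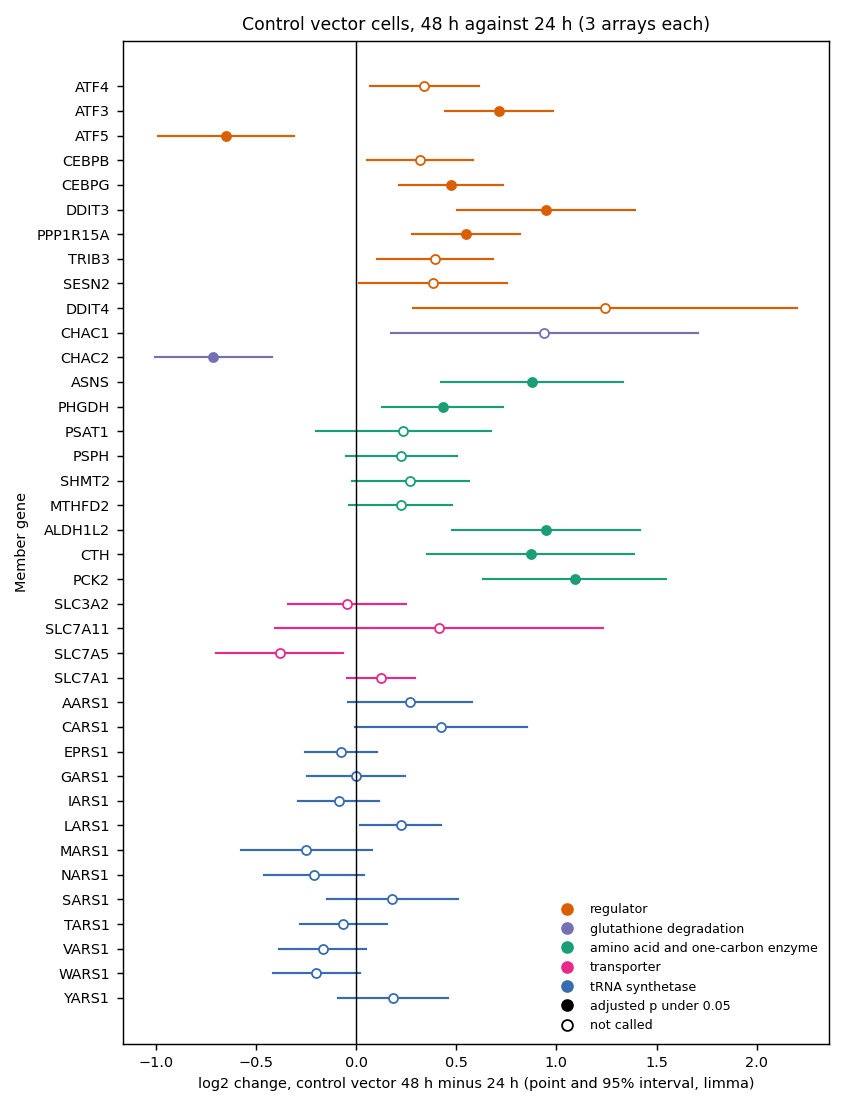
Points are log2 changes of 38 members in control cells, 48 h minus 24 h, with 95% intervals from limma (3 arrays each); filled points passed an adjusted p of 0.05. The filled points are 9 rises among regulators and enzymes and the falls of ATF5 and CHAC2, and the synthetases at the bottom lie on both sides of 0.

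In RHOXF1 cells, 6 of 38 members were called at 48 h against 24 h, beside 4.42% of all rows: 4 rose, beside 3.06%, and 2 fell, beside 1.35%. An unadjusted p under 0.05 was found for 15 members, beside 20.2% of all rows. The arrays lay wholly above for 9 members, beside 15.1% of all rows, and wholly below for 5, beside 14.7%. This comparison shares no array with that in control cells. ATF3 read 7.68, 7.55 and 7.94 at 48 h, against 7.14, 7.27 and 7.15 at 24 h (0.54 ± 0.13, limma adjusted p = 0.0257). PCK2 read 9.27, 8.86 and 9.50 at 48 h, against 8.74, 8.15 and 8.07 at 24 h (0.89 ± 0.22, adjusted p = 0.0287). DDIT3 read 8.14, 7.36 and 8.21 at 48 h, against 7.23, 7.05 and 7.01 at 24 h (0.81 ± 0.21, adjusted p = 0.0379). TRIB3 read 7.87, 7.70 and 8.08 at 48 h, against 7.58, 7.15 and 7.40 at 24 h (0.50 ± 0.14, adjusted p = 0.0457). None of these 4 overlapped between the times. TRIB3 did not pass after quantile normalization was repeated (adjusted p = 0.0583) or after cyclic loess (0.0575). ATF5 fell, with 7.10, 7.33 and 7.12 at 48 h, against 7.94, 7.95 and 7.87 at 24 h (-0.74 ± 0.16, adjusted p = 0.0179). CHAC2 fell as well, with 8.55, 8.57 and 8.40 at 48 h, against 8.87, 9.19 and 9.08 at 24 h (-0.54 ± 0.14, adjusted p = 0.0349). Both were lower on every 48 h array. These 6 calls depended on the arrays. None passed without RHOXF1 replicate 2 or 3 at 24 h, or without replicate 1 or 3 at 48 h. Without replicate 1 at 24 h ATF3 (adjusted p = 0.0627) and DDIT3 (0.0533) were lost. All 6 mean changes kept their sign in every setting, with ATF5 from -0.81 to -0.69 and DDIT3 from 0.65 to 1.08. The share of all rows called without an array is not given, so a lost call does not show that a value rested on that array. Without replicate 2 at 48 h 8 members were called, with ATF4 (0.56, adjusted p = 0.023), CEBPB (0.60, adjusted p = 0.0154) and ASNS (0.83, adjusted p = 0.0367) added and CHAC2 lost (adjusted p = 0.0582). ATF4's brighter row, on all 18 arrays fitted, read 11.56, 11.05 and 11.52 at 48 h, against 11.00, 10.98 and 10.95 at 24 h (0.40 ± 0.13, adjusted p = 0.0831).

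In RHOXF2 cells no member was called by limma at 48 h against 24 h, beside 1.24% of all rows (0.985% higher and 0.259% lower), and 8 members had an unadjusted p under 0.05, where 16.7% of all rows did. The 48 h arrays lay wholly above for 9 members, beside 12% of all rows, and wholly below for 2, beside 8.11%. The smallest adjusted p was 0.0666, for ATF3, which read 7.90, 7.91 and 7.53 at 48 h, against 7.28, 7.32 and 7.30 at 24 h (0.48 ± 0.13). PPP1R15A followed with 9.04, 9.25 and 9.21 at 48 h, against 8.79, 8.52 and 8.80 at 24 h (0.46 ± 0.13, adjusted p = 0.0739). Both were higher on every 48 h array. ATF5 read 7.08, 7.10 and 7.90 at 48 h, against 7.65, 7.80 and 7.80 at 24 h, so that replicate 3 at 48 h stood above all 24 h arrays and apart from the other two. Without that replicate 3 members were called: ATF3 (0.60, adjusted p = 0.0201), ATF5 (-0.66, adjusted p = 0.00744) and SLC7A5 (-0.58, adjusted p = 0.0429).

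The 3 kinds of cell used separate arrays for these comparisons, but the comparisons are not given as independent. Over the member rows, deviations of 24 h arrays of different vectors correlated at 0.79 to 0.85 among replicate 1. Among replicate 2 they correlated at -0.04 to 0.64 and among replicate 3 at 0.25 to 0.67. Arrays with different numbers reached 0.71. ATF3, ATF5, DDIT3, CHAC2 and PCK2 were called in both control and RHOXF1 cells. Of all rows, 17.8% were called in control and 4.42% in RHOXF1 cells. The share of all rows called in both was not counted, so this overlap is not given as particular to the members. In the order RHOXF1, RHOXF2 and control cells, the log2 change of PCK2 was 0.89, 0.63 and 1.09, that of DDIT3 0.81, 0.54 and 0.95, and that of CHAC2 -0.54, -0.32 and -0.71. The mean change had the same sign in all 3 kinds of cell for 32 of the 38 members, 23 of them higher at 48 h and 9 lower. All 11 members called in control cells were among these. ATF4 and PSPH are counted as higher by their brighter rows. In RHOXF2 cells the dimmer row of ATF4 averaged 10.01 at 48 h and 10.07 at 24 h, and that of PSPH 8.48 and 8.64. Among the synthetases 4 were higher and 5 lower in all 3.

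**Figure D3:**
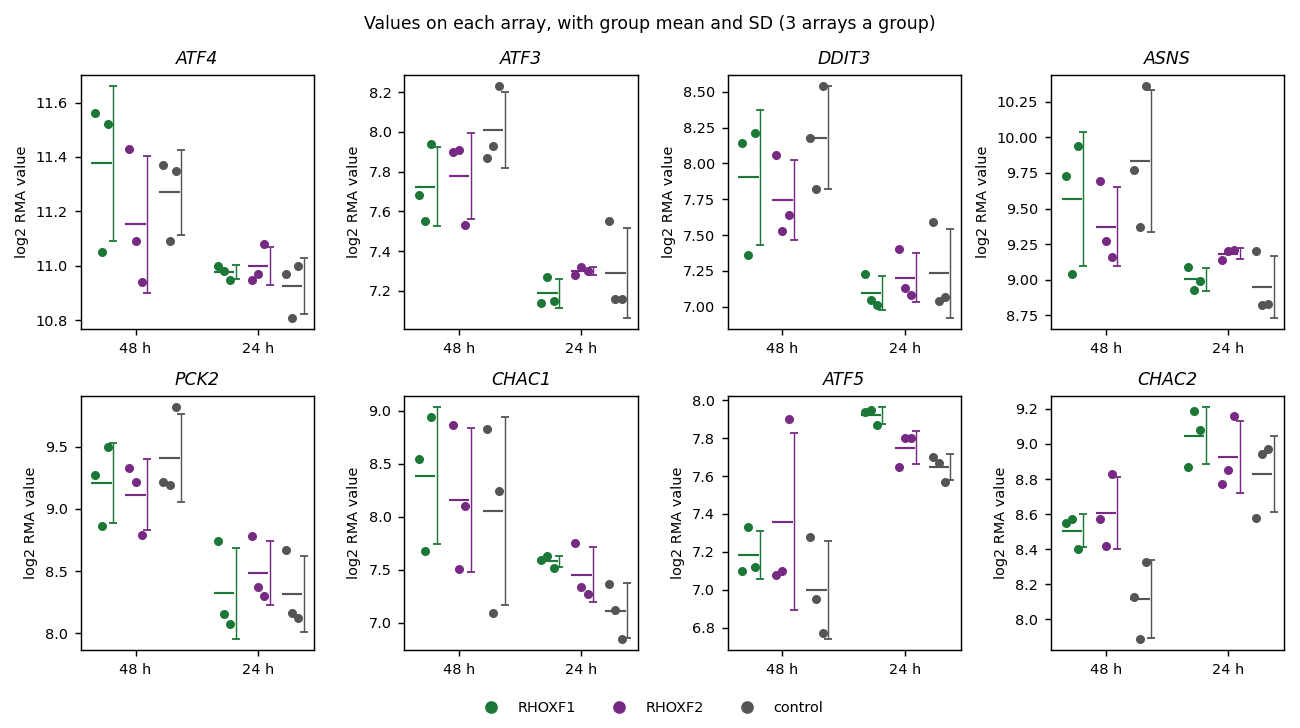
Points are log2 RMA values of 8 members on each array, with horizontal lines at the group means and bars of 1 SD (3 arrays a group); the axes differ between genes and start above 0. ATF3, DDIT3, ASNS and PCK2 lie higher at 48 h and ATF5 and CHAC2 lower, with wide 48 h spreads for CHAC1 and ASNS.

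The members also varied more between replicate arrays at 48 h than at 24 h. The SD within a group had a median over the 25 members other than synthetases of 0.28 in RHOXF1 cells, 0.21 in RHOXF2 cells and 0.31 in control cells at 48 h. At 24 h it was 0.12, 0.09 and 0.16 in the same order. The median over all rows lay between 0.09 and 0.12 in every group, below the members other than synthetases at 48 h. For the synthetases it was 0.13, 0.14 and 0.15 at 48 h, against 0.09, 0.10 and 0.10 at 24 h. The median of the members on an array, each gene centred on its mean over 18 arrays, was lowest on replicate 2 in 5 of the 6 groups. On the 48 h arrays it was 0.12, -0.20 and 0.22 in RHOXF1 cells, 0.16, -0.04 and 0.14 in RHOXF2 cells and 0.17, -0.16 and 0.26 in control cells. In RHOXF1 cells at 24 h replicates 2 and 3 were level. Replicate 2 at 48 h comprises the arrays numbered 19 to 21, next to each other in array order, and the part of array order in this was not tested.

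**Figure D4:**
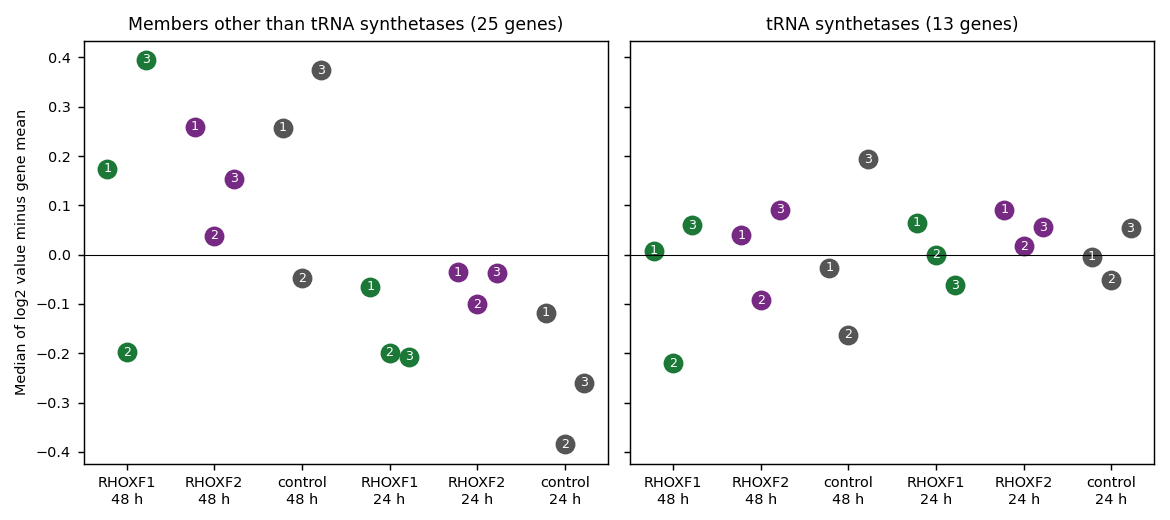
Each point is 1 array, marked with its replicate number; its height is the median over member genes of the log2 value minus the gene's mean over 18 arrays. Left, the 25 members other than synthetases lie higher on most 48 h arrays, with replicate 2 lowest in each 48 h group; right, the 13 synthetases have replicate 2 lowest at 48 h and lie on both sides of 0 at both times.

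With group means removed, the 703 pairs of members had a median Pearson correlation of 0.51 over 18 arrays, which share a table and its normalization, and the 36 pairs of amino acid enzymes one of 0.64. The member most like the brighter ATF4 row was EPRS1, the synthetase for glutamate and proline (r = 0.84), followed by SESN2 (0.81), ASNS (0.81), MTHFD2 (0.80) and CTH (0.78). ATF5 was opposite (-0.46). Over all rows with 1 symbol, the 5 most like it were RPS6KA6 (0.91), MORN4 (0.84), EPRS1 (0.84), CALCRL (0.83) and HHIP (0.83). With group means kept, EPRS1 correlated with the brighter ATF4 row at 0.08, and it was lower at 48 h in all 3 kinds of cell. The other 4 then had 0.68 to 0.88. The dimmer ATF4 row had other neighbours, led by ZNF160 (0.93), and a correlation of -0.09 with the brighter one. These values describe 18 arrays and carry no test, and no median over pairs of all rows is given beside them.

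Neither RHOX gene moved a member past the test. At 48 h no member was called by limma in RHOXF1 cells against control cells, beside 0.00943% of all rows, and 2 had an unadjusted p under 0.05, where 7.22% of rows did. The members' median log2 change was -0.07, with 13 of 38 higher and a range of -0.57 to 0.39. The sign of this median depended on 1 array: it was 0.05 without RHOXF1 replicate 2 and -0.15 without replicate 3. The RHOXF1 arrays lay wholly above the control arrays for 2 members, beside 7.17% of all rows, and wholly below for 0, beside 5.39%. CHAC2 had the smallest p: it read 8.55, 8.57 and 8.40 in RHOXF1 cells, against 8.13, 7.89 and 8.33 in control cells. The arrays did not overlap, with a change of 0.39 ± 0.14 (95% interval 0.10 to 0.68, adjusted p = 0.586). ATF3 read 7.68, 7.55 and 7.94, against 7.87, 7.93 and 8.23 in control cells (-0.28 ± 0.13, adjusted p = 0.674). VARS1, the synthetase for valine, read 10.98, 11.04 and 10.99 in RHOXF1 cells, against 10.78, 10.76 and 10.80 in control cells (0.22, adjusted p = 0.689). CEBPB read 9.25, 8.87 and 9.44, against 9.13, 8.66 and 9.03 in control cells (0.25, adjusted p = 0.714). VARS1 did not overlap between the groups, while ATF3 and CEBPB did.

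In RHOXF2 cells at 48 h no member was called by limma against control cells either, beside 0.0943% of all rows, and 3 had an unadjusted p under 0.05, where 12.2% of rows did. The median was -0.01, with 18 of 38 higher, and ran from -0.13 without control replicate 2 to 0.08 without control replicate 3. The RHOXF2 arrays lay wholly above the control arrays for 2 members, beside 6.59% of all rows, and wholly below for 0, beside 5.24%. CHAC2 again had the smallest p, with 8.57, 8.42 and 8.83 in RHOXF2 cells, against 8.13, 7.89 and 8.33 in control cells. Every RHOXF2 array lay above every control array, and the change was 0.49 ± 0.14 (95% interval 0.20 to 0.78, adjusted p = 0.216). The comparisons of RHOXF1 and of RHOXF2 share the control arrays, so their likeness at CHAC2 is not independent. ATF5 read 7.08, 7.10 and 7.90 in RHOXF2 cells, against 7.28, 6.95 and 6.77 in control cells (0.36 ± 0.16, adjusted p = 0.381), with the difference on replicate 3. ASNS read 9.69, 9.27 and 9.16 in RHOXF2 cells, against 9.77, 9.37 and 10.36 in control cells (-0.46 ± 0.22, adjusted p = 0.407). DDIT3 read 8.06, 7.53 and 7.64, against 8.18, 7.82 and 8.54 in control cells (-0.44 ± 0.21, adjusted p = 0.416). For both genes the highest array was control replicate 3.

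At 24 h no member was called by limma for either gene. RHOXF1 cells had 26 of 38 members higher than control cells, with a median of 0.05 (-0.01 without control replicate 2) and none with an unadjusted p under 0.05, beside 0.00471% of rows called and 4.76% with such a p. Their arrays lay wholly above for 3 members, beside 4.6% of all rows, and wholly below for 0, beside 4.93%. The smallest p belonged to ATF5, which read 7.94, 7.95 and 7.87 in RHOXF1 cells, against 7.70, 7.67 and 7.57 in control cells (0.27 ± 0.16, adjusted p = 0.961). CHAC1 read 7.59, 7.63 and 7.52, against 7.37, 7.12 and 6.85 in control cells (0.47 ± 0.37, adjusted p = 0.961). Neither overlapped with control. CHAC2 read 8.87, 9.19 and 9.08 in RHOXF1 cells, against 8.58, 8.94 and 8.97 in control cells (0.22, adjusted p = 0.961). YARS1, the synthetase for tyrosine, read 10.91, 10.79 and 10.80, against 10.90, 10.51 and 10.68 in control cells (0.14, adjusted p = 0.969). Both overlapped.

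RHOXF2 cells at 24 h had 35 of 38 members higher than control cells, where 10349 of 21214 rows were higher. The members' median was 0.10 (0.05 without control replicate 2), against -0.003 over all rows. The members correlated between arrays, as given above, so like signs are not separate observations. Again no member had an unadjusted p under 0.05, beside 0.00943% of rows called and 7.99% with such a p. Their arrays lay wholly above for 5 members, beside 3.89% of all rows, and wholly below for 0, beside 7.18%. CTH read 8.74, 8.71 and 8.74 in RHOXF2 cells, against 8.30, 8.06 and 8.36 in control cells, a change of 0.49 ± 0.25 (95% interval -0.03 to 1.00, adjusted p = 0.662). SESN2 read 8.88, 8.82 and 8.99, against 8.68, 8.53 and 8.58 in control cells (0.30 ± 0.18, adjusted p = 0.72). CTH and SESN2 did not overlap between the groups. PPP1R15A read 8.79, 8.52 and 8.80 in RHOXF2 cells, against 8.70, 8.19 and 8.66 in control cells (0.19, adjusted p = 0.779). SLC3A2 read 10.90, 10.75 and 10.60, against 10.71, 10.39 and 10.56 in control cells (0.20, adjusted p = 0.779). Both overlapped.

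For ATF4's brighter row the log2 difference from control cells at 48 h was 0.11 in RHOXF1 cells (95% interval -0.17 to 0.38) and -0.11 in RHOXF2 cells (-0.39 to 0.16). At 24 h it was 0.05 (-0.22 to 0.32) in RHOXF1 cells and 0.07 (-0.20 to 0.35) in RHOXF2 cells. For TRIB3 it was 0.08 in RHOXF1 cells and 0.06 in RHOXF2 cells at 48 h, and -0.03 in RHOXF1 cells and 0.19 in RHOXF2 cells at 24 h. All arrays of these comparisons overlapped. ATF4's dimmer row averaged below control cells for both genes at both times. At 48 h it averaged 10.17 in RHOXF1 and 10.01 in RHOXF2 cells, against 10.57 in control cells, where 1 array read 11.34. At 24 h it averaged 10.11 and 10.07, against 10.22. The RHOXF1 arrays at 24 h (up to 10.13) lay wholly below the control arrays (from 10.14), and the others overlapped. The ATF4 rows had the same sign only for RHOXF2 at 48 h. A missing call does not show that the level was the same: the 95% intervals that reached farthest were those of DDIT4 at 48 h, to -1.53 in RHOXF1 cells and -1.22 in RHOXF2 cells, and at 24 h those of CHAC1 in RHOXF1 cells, to 1.23, and of SLC7A11 in RHOXF2 cells, to 1.24.

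**Figure D5:**
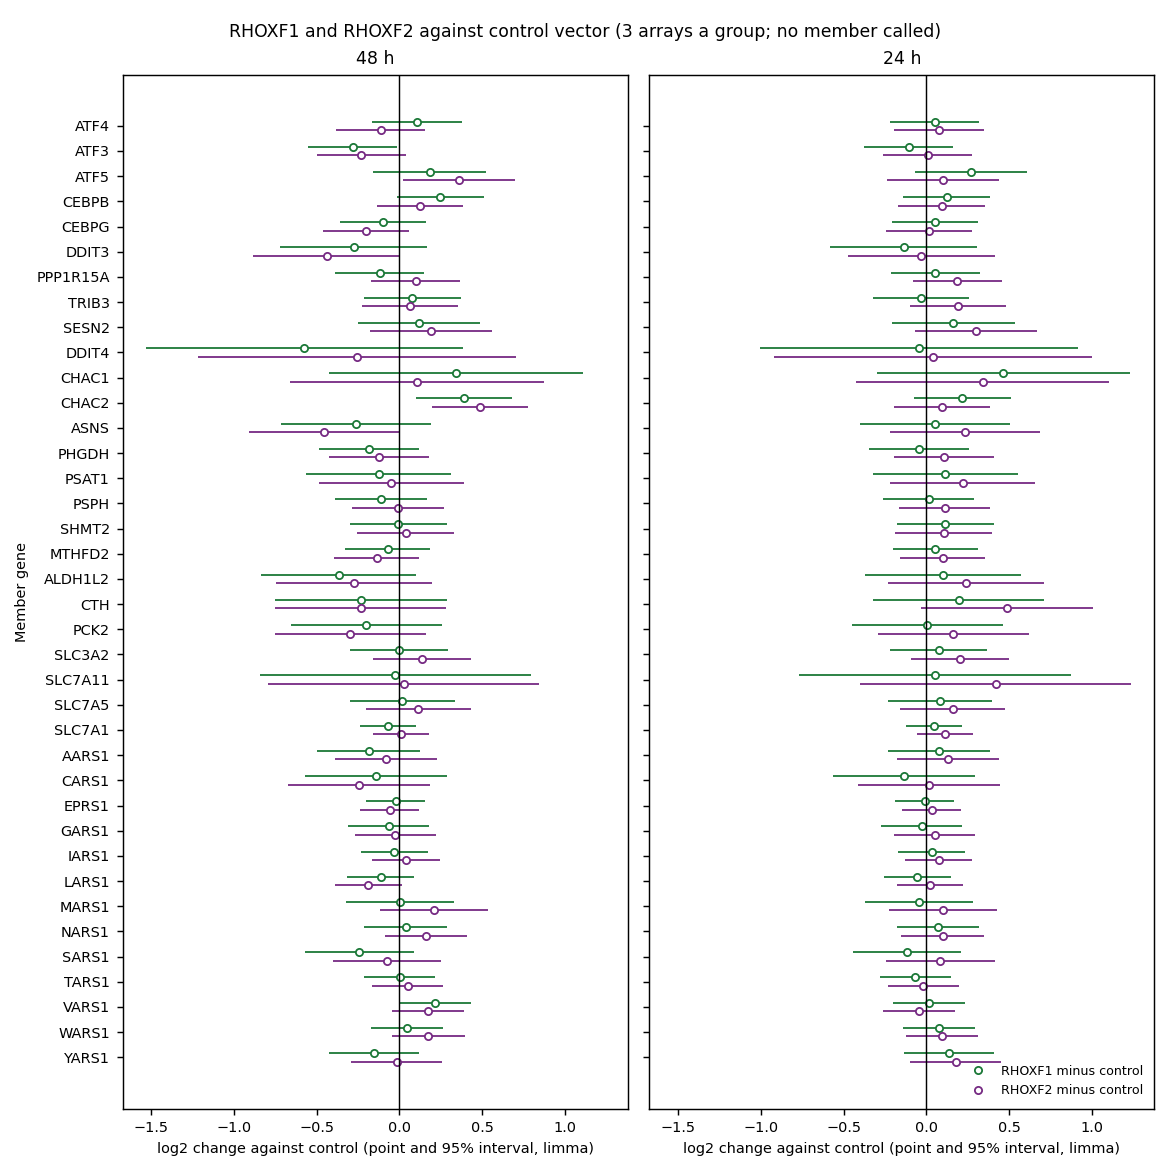
Points are log2 changes of 38 members in RHOXF1 cells (green) and RHOXF2 cells (purple) against control cells, with 95% intervals from limma (3 arrays a group); left 48 h, right 24 h. No member passed the test, most intervals cover 0, and CHAC2 at 48 h lies to the right of 0 for both genes, which share the control arrays.

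The amino acid and one-carbon enzymes mostly shared a sign within each comparison with control. At 48 h 0 of 9 read higher in RHOXF1 cells than in control cells (median -0.18) and 1 of 9 in RHOXF2 cells (median -0.14). At 24 h 8 of 9 read higher in RHOXF1 cells (0.05) and 9 of 9 in RHOXF2 cells (0.16). PSPH is among the 8 by its brighter row, while its dimmer row averaged 8.31 in RHOXF1 and 8.42 in control cells at 24 h. The effect at 48 h minus that at 24 h was below 0 for all 9 enzymes with both genes. The medians were -0.21 for RHOXF1 and -0.27 for RHOXF2, against -0.10 and -0.14 over all members. Without RHOXF1 replicate 2 at 48 h the median over all members for RHOXF1 was 0.01. No member was called by limma in these differences of effects, beside 0% of all rows for RHOXF1 and 0.0141% for RHOXF2. For RHOXF1 no member had an unadjusted p under 0.05, beside 4.7% of all rows. For RHOXF2 1 did, beside 8.75%, namely ASNS (-0.69 ± 0.31, adjusted p = 0.56). CTH differed by -0.72 (adjusted p = 0.573) and CHAC2 by 0.39 (adjusted p = 0.577). The enzymes also varied together between replicates, as given above, so 9 like signs are not 9 separate observations. Both differences of effects subtract the same change in control cells, with a median of 0.43 over these enzymes. Like signs with both genes are therefore not independent. The synthetases had 5 of 13 higher in RHOXF1 cells and 6 of 13 in RHOXF2 cells at 48 h, and 6 and 11 of 13 at 24 h.

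RHOXF1 cells were also compared with RHOXF2 cells directly. At 48 h no member was called by limma, beside 0.0519% of all rows, and none had an unadjusted p under 0.05, beside 3.52%. Of 38 members 14 were higher in RHOXF1 cells and the median was -0.06 (0.09 without RHOXF1 replicate 2). The RHOXF1 arrays lay wholly above for 0 members, beside 4.78% of all rows, and wholly below for 2, beside 4.46%. The smallest p belonged to ATF4 (0.22 ± 0.13, adjusted p = 0.998) and PPP1R15A (-0.22 ± 0.13, adjusted p = 0.998). At 24 h none was called, beside 0.0141% of all rows, and none had an unadjusted p under 0.05, beside 1.7%. There 7 of 38 members were higher with a median of -0.08, where 11331 of 21214 rows were higher with a median of 0.007. The RHOXF1 arrays lay wholly above for 1 member, beside 3.84% of all rows, and wholly below for 6, beside 2.36%. The 6 were SLC7A11 (-0.37), CTH (-0.29), ASNS (-0.18), SESN2 (-0.14), ATF3 (-0.12) and EPRS1 (-0.04). TRIB3 had the smallest p there (-0.22 ± 0.14, 95% interval -0.52 to 0.07).

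Other genes of the pathway are given from lists. Of 22 further ATF4 targets 21 were measured. In control cells at 48 h against 24 h 8 rose, beside 9.89% of all rows, and 1 fell, beside 7.89%. Of the 21, 16 read higher, with a median of 0.35. Called by limma were STC2, a secreted glycoprotein (1.05, adjusted p = 0.00438), VLDLR, a lipoprotein receptor (0.97, adjusted p = 0.000723), ULBP1, a ligand of the NKG2D immune receptor (0.88, adjusted p = 0.00316), KLHL24 (0.72, adjusted p = 0.000968), GRB10 (0.46, adjusted p = 0.0157), NUPR1 (0.46, adjusted p = 0.0424), SLC43A1 (0.35, adjusted p = 0.0361) and PYCR1, of proline synthesis (0.35, adjusted p = 0.015). ADM2 fell (-0.26, adjusted p = 0.0408). In RHOXF1 cells 3 of the 21 rose between the times, beside 3.06% of all rows. In RHOXF2 cells none was called, beside 1.24%. None of the 21 was called in RHOXF1 or RHOXF2 cells against control cells at either time, where at most 0.0943% of all rows were.

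Of 16 eIF2 kinases and initiation factors, 2 rose and 3 fell in control cells at 48 h against 24 h. Of all rows, 9.89% rose and 7.89% fell there. EIF2AK3, or PERK, the kinase that senses stress in the ER, rose by 0.43 (limma adjusted p = 0.0074), and DELE1, which relays mitochondrial stress to the eIF2 kinase HRI, rose by 0.46 (adjusted p = 0.00369). The eIF2 subunit gene EIF2S1 (-0.28, adjusted p = 0.0171) and the exchange factor genes EIF2B1 (-0.43, adjusted p = 0.00408) and EIF2B5 (-0.29, adjusted p = 0.048) fell. Of 7 measured of 10 other cytosolic synthetases and complex factors, RARS1 (-0.49, adjusted p = 0.00213) and HARS1 (-0.42, adjusted p = 0.0218) fell and none rose. Of 16 measured mitochondrial synthetases, LARS2 (-0.36, adjusted p = 0.0178) and CARS2 (-0.31, adjusted p = 0.0325) fell and none rose. All these counts stand beside the same shares of all rows, and no list was tested as a set.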

How the data were processed

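Total RNA of 18 HEK293 samples was hybridised to Affymetrix arrays, which the series text calls exon arrays; the deposited table has 1 value per row and array. The deposited values are log2 RMA values, made by the authors with Affymetrix Expression Console 3.1 per the submitters' processing notes, which also list Transcriptome Analysis Console. A build for the platform annotation is not given in the sources used here. Of 33297 rows, 21214 carry a gene symbol in the platform annotation and were tested. With R 4.3.3 and limma 3.58.1, 1 mean per group was fitted over 18 arrays (12 residual degrees of freedom) with moderated two-sided tests, Benjamini-Hochberg adjustment over 21214 rows and a threshold of 0.05, for 11 comparisons. A gene is described by its brightest row. The procedure was tested on simulated data. Named in full are ATF4, DDIT3, ATF3, ASNS, TRIB3, CHAC1, every member called anywhere and the 4 smallest p in each comparison with control and between the times in control cells. Other genes named for a wide spread, a split or an order were chosen after their values were seen. The members and lists were chosen with earlier results of these data known. Alternatives were the arrays in the fit, the rows tested, the normalization, the variance prior, the rows per gene, a replicate block and leaving out each array. No depth applies to arrays, and their number limits the precision. Promoter windows are from RefSeq (GRCh38.p14), and 7 members have none.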

Additional observations from a re-analysis of the deposited data

How the results depend on the processing

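With every row of the table tested, 1 member (ATF5) was called in RHOXF1 cells at 48 h against 24 h. The added rows enter both the adjustment and the estimate of the variance prior, and the parts of these were not told apart. Leaving out 1 array gave 5 to 16 members called between the times in control cells, 0 to 8 in RHOXF1 cells and 0 to 3 in RHOXF2 cells. The median over members of RHOXF1 against RHOXF2 at 48 h ran from -0.139 to 0.0909 when 1 array was left out. Of the values recomputed, 156 counts of members called stayed within 1.5 times and 162 medians moved by less than the spread between replicates. Within that spread, medians near 0 did change sign when 1 array was left out: RHOXF1 against control ran from -0.15 to 0.05 at 48 h and from -0.01 to 0.08 at 24 h, RHOXF2 against control at 48 h from -0.13 to 0.08, and the RHOXF1 effect at 48 h minus that at 24 h from -0.20 to 0.01. Many of these counts and medians could not move, so the totals do not measure stability. The block, the fit of only the groups compared, the test of all rows and the other variance prior leave the mean changes as they are. Comparisons with control and between the RHOX genes had no call, and their counts stayed at 0. The 7 counts that moved were all of 48 h against 24 h. Of the named genes' values 1233 kept their side of the threshold, 49 lost it and 7 gained it. With the replicate number as a block within each time, 0 members were called in the 8 comparisons that allow it, and the medians were those without the block (-0.07 for RHOXF1 and -0.01 for RHOXF2 against control at 48 h). The block cannot be estimated for 48 h against 24 h within a vector. Same-numbered arrays deviated together in 8 of 9 pairs at 24 h (r from 0.06 to 0.52) and in 2 of 9 at 48 h (-0.35 to 0.24), and 8 and 2 of 9 arrays correlated best with their own number, so not every pair passed and the numbers were not used as pairs. Over the member rows 8 of 9 pairs at 24 h and 6 of 9 at 48 h were above 0.1.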

Other observations

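Genes of other stress responses had values of their own between the times in control cells. Of 16 ER chaperones and targets of XBP1 or ATF6, 2 rose at 48 h against 24 h by limma and 4 fell. Of all rows, 9.89% rose and 7.89% fell. HERPUD1, of ER-associated degradation, rose by 0.89 on the log2 scale (adjusted p = 0.00462) and DNAJB9 by 0.44 (adjusted p = 0.0328). DNAJB11 (-0.55, adjusted p = 0.00502), CRELD2 (-0.50, adjusted p = 0.00136), HYOU1 (-0.44, adjusted p = 0.0122) and CALR (-0.35, adjusted p = 0.0326) fell. HSPA5, the ER chaperone BiP, had an adjusted p of 0.992. Of 17 heat shock genes 1 rose and 8 fell, beside the same shares of all rows, with a median of -0.25. Of 11 measured markers of other cell types, 1 was called, as lower, beside 7.89% of all rows. Of the 7 HEK293 marker genes 3 were called, all higher, beside 9.89% of all rows. They were KRT8 (0.58, adjusted p = 0.0172), VIM (0.46, adjusted p = 0.0113) and NEFL (0.24, adjusted p = 0.0349).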
